A study of Mus musculus with 6 samples.

Results

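The genes described here carry the beta-adrenergic signal into brown adipocytes. They are 9 genes chosen by name for their role in that pathway, and all 9 were found among the 18507 genes of the expression table: the receptors Adrb1 and Adrb3, the G protein subunit Gnas, the adenylyl cyclase Adcy3, the protein kinase A (PKA) subunits Prkaca, Prkacb, Prkar1a and Prkar2b, and the phosphodiesterase Pde3b. RNA was sequenced from interscapular brown adipose tissue, a thermogenic fat depot, of 3 mice labelled Beclin1_KO and 3 wild-type (WT) mice. The series title describes the knockout as adipocyte-specific, so other cell types of the tissue keep the gene. Both groups were C57BL/6 mice that ate chow and lived at 22 °C, with light for 12 h of each day, and mice of both genotypes were gavaged with tamoxifen at 75 mg/kg daily for 5 days to start Cre recombination, although a treatment tag of every sample reads untreated. Age, sex, the promoter that drives Cre and the interval after tamoxifen are not given in the sources used here. Beclin 1, the protein made from Becn1, takes part in the first steps of autophagy.

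In brown fat, noradrenaline from sympathetic nerves binds beta-adrenergic receptors, of which the beta-3 receptor is typical of rodent adipocytes. The receptors act through the stimulatory G protein on adenylyl cyclase, and the cAMP it makes releases the catalytic subunits of PKA from their regulatory subunits. Free catalytic subunits phosphorylate lipolytic proteins and the transcription factor CREB, which leads to fatty acid release, uncoupled respiration and induction of thermogenic genes. Phosphodiesterases end the signal by hydrolysing cAMP, and phosphodiesterase 3B in adipocytes is known as the one that insulin activates.

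Promoter sequences are shown for the 3 PKA subunits that the comparison turns on, 2 that differed most between the genotypes and 1 that did not pass the test. They are RefSeq windows of assembly GRCm38.p6 that run from 250 bases before to 50 bases after a transcript start, 5′ to 3′ on the gene's strand: Prkaca at chr8:83972728-83973027 (+ strand), Prkar1a at chr11:109650699-109650998 (+ strand) and Prkar2b at chr12:32061228-32061527 (- strand). Capitals mark the cAMP response element TGACGTCA, the palindrome that CREB binds, and its core TGACG, which reads CGTCA on the opposite strand and is contained in the full element.
Prkaca: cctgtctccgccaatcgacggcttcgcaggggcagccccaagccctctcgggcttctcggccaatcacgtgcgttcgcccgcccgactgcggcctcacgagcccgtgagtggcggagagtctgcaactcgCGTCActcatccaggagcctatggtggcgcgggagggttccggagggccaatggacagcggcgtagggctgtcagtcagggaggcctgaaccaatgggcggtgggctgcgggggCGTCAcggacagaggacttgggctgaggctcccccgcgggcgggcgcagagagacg
Prkar1a: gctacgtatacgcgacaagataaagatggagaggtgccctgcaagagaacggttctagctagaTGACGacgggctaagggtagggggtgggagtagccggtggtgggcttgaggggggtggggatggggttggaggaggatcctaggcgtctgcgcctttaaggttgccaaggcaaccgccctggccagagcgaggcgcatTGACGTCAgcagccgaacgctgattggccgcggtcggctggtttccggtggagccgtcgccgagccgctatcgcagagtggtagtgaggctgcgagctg
Prkar2b: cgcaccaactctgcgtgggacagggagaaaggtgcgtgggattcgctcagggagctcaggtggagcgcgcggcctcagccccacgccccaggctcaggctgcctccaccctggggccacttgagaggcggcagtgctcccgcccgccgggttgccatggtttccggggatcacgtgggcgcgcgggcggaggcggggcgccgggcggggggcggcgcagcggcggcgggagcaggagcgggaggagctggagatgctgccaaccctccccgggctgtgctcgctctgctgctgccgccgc

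Where a gene had several windows, one with a full element before the transcript start was preferred, and then the one with the most matches. These windows are thus not a neutral choice. The printed Prkar1a window held a full element that starts 49 bases before the transcript start and a separate core 187 bases before it. An unprinted Prkar1a window, at chr11:109650612-109650911, held as many matches. There the same element starts 38 bases after the transcript start. The transcript start of the printed window lies 1544 bases from the gene start of the GENCODE annotation. The Prkar1a window nearest that GENCODE start, 42 bases from it, held 1 core and no full element. The Prkar1a window at chr11:109648773-109649072, whose transcript start is the RefSeq gene start, held no match. The printed Prkaca window held 2 cores, which start 120 and 6 bases before the transcript start, and no full element. The other Prkaca window held no match. No match was found in the printed Prkar2b window. The table had windows for 7 of the 9 genes, without Adrb3 and Pde3b. Among these 7, Prkar1a alone had the full element, which stood in 1.79% of all 32851 windows of the table. A core was found in 9 of the 20 windows of these 7 genes, which belong to Adrb1, Gnas, Prkaca, Prkacb and Prkar1a, and in 20.8% of all windows. Some windows overlap, so a site can be counted more than once. The Gnas windows at chr2:174327499-174327798 and chr2:174327518-174327817 share a core. The Prkar1a windows at chr11:109650699-109650998 and chr11:109650612-109650911 share the full element. The 9 of 20 is therefore not read as an excess over all windows. A match describes these letters and does not show that a factor binds there.

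All 9 are protein-coding genes, placed here by RefSeq on GRCm38.p6. The receptor genes are Adrb1 at chr19:56722117-56725150 (+ strand) and Adrb3 at chr8:27225776-27230845 (- strand). Gnas spans chr2:174284320-174346744 (+ strand), Adcy3 chr12:4133116-4213525 (+ strand) and Pde3b chr7:114415222-114537938 (+ strand). The kinase subunit genes are Prkaca at chr8:83972978-83996444 (+ strand), Prkacb at chr3:146729579-146812946 (- strand), Prkar1a at chr11:109649023-109669663 (+ strand) and Prkar2b at chr12:31958450-32061648 (- strand).

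Of the 9 genes, 7 fell in Beclin1_KO brown fat, none rose and 2 did not pass the test at an adjusted p of 0.05 (edgeR quasi-likelihood test, Benjamini-Hochberg adjustment over the 15347 genes tested). Across all genes tested, 21.8% fell and 24.8% rose, so 46.6% passed in one direction or the other. The 9 genes were chosen with earlier results of these data known, so the shares are set side by side only as a description. The median log2 fold change, Beclin1_KO minus WT, was -1.44 over the 9 genes and 0.05 over all genes tested. In 7 of the 9 genes the libraries of the genotypes did not overlap, which held for 59.7% of all genes tested. In whole tissue, fewer cells of a type and less RNA per cell cannot be told apart, and this applies to every gene below. Brown adipocyte markers (10 of 10 lower) summed to 2699 to 5619 CPM (counts scaled to library size) in Beclin1_KO libraries, against 14046 to 18822 CPM in WT libraries. Their part in the results below was not tested.

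**Figure D1:**
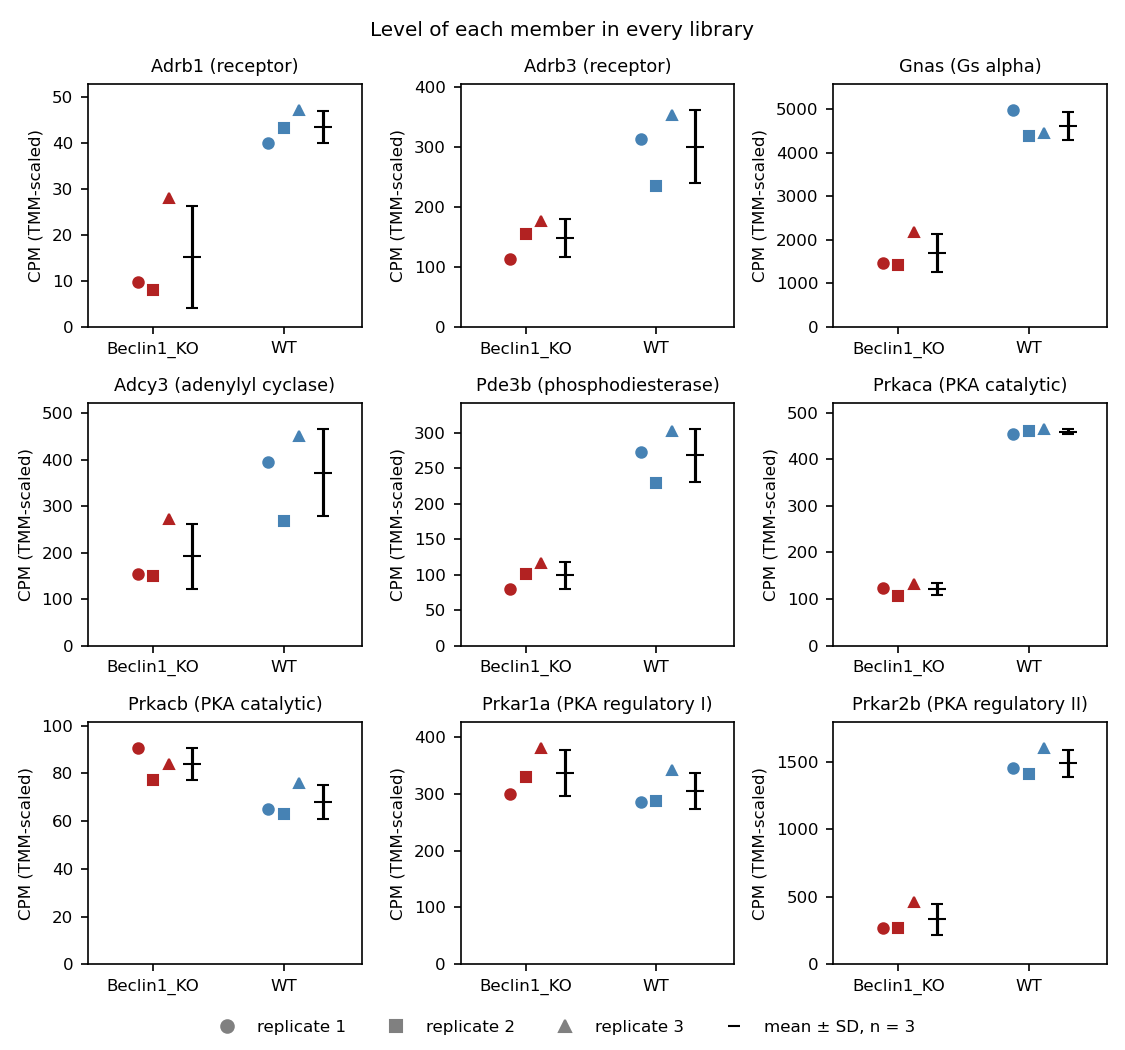
Level of each of the 9 genes in every library, in TMM-scaled CPM on a linear axis from 0, with Beclin1_KO on the left and WT on the right; marker shapes give the replicate number and black bars the mean ± SD (n = 3). The 3 Beclin1_KO libraries lie below all WT libraries for 6 genes and above them for Prkacb, and Beclin1_KO replicate 3 is the highest of its group for 8 of the 9 genes.

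Libraries held 50536315 to 60983193 counts in Beclin1_KO and 44269031 to 50842488 in WT. Becn1 itself fell, with 58.0, 53.7 and 42.7 CPM in Beclin1_KO and 82.8, 86.4 and 89.2 CPM in WT (log2 fold change -0.74, adjusted p = 0.00411, edgeR). Ucp1, the uncoupling protein that defines brown fat, was abundant in both groups, at 863 to 1823 FPKM (fragments scaled to gene length and library size) in Beclin1_KO and 4307 to 5770 FPKM in WT. The 10 skeletal muscle markers summed to 38212, 9002 and 1530 CPM in Beclin1_KO and to 682, 20187 and 1385 CPM in WT, so Beclin1_KO replicate 1 and WT replicate 2 stood apart. For the 9 genes, calls that changed when both were left out are given beside the gene.

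Adrb3, which encodes the beta-3 receptor, had 113, 154 and 176 CPM in Beclin1_KO libraries, against 314, 235 and 354 CPM in WT libraries. All 3 knockout libraries lay below all WT libraries. The mean was 148 ± 32.2 CPM in Beclin1_KO and 301 ± 60.5 CPM in WT (SD, n = 3 each). Adrb3 fell 2.03-fold, a log2 fold change of -1.02 with an SE of 0.22 (adjusted p = 0.00913, edgeR). The call held in all 19 alternative analyses.

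Adrb1, the gene of the beta-1 receptor, had 9.69, 8.0 and 28.0 CPM in Beclin1_KO, against 39.9, 43.3 and 47.0 CPM in WT. The groups did not overlap, but Beclin1_KO replicate 3 lay between the other knockout libraries and WT. The fall was 2.85-fold, with a log2 fold change of -1.51, an SE of 0.50 and an adjusted p of 0.0498 (edgeR), just inside the threshold. Without Beclin1_KO replicate 3 the log2 fold change was -2.30 (adjusted p = 0.000165), and leaving out any other library ended the call. The adjusted p was then 0.126 and 0.101 without Beclin1_KO replicates 1 and 2, and 0.0893, 0.0933 and 0.118 without WT replicates 1, 2 and 3. Without both libraries highest in muscle markers it was 0.154, with a log2 fold change of -1.27. Adrb1 passed in 11 of 19 alternatives, with adjusted p from 0.000165 to 0.154.

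The balance of these receptors did not separate the groups. On the FPKM scale, which divides by gene length and so allows levels of different genes to be compared, Adrb3 was 10.4, 17.2 and 5.61 times as high as Adrb1 in Beclin1_KO and 7.01, 4.85 and 6.72 times in WT. The log2 ratio was 0.71 higher in Beclin1_KO, with overlapping groups (exact two-sided permutation p = 0.3).

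Gnas encodes the alpha subunit of the stimulatory G protein, and was the most abundant of the 9 genes per length in every library. It had 1474, 1414 and 2191 CPM in Beclin1_KO, against 4975, 4378 and 4467 CPM in WT. Every knockout library was below every WT library. Gnas fell 2.72-fold, with a log2 fold change of -1.44, an SE of 0.23 and an adjusted p of 0.00255 (edgeR). The locus is imprinted and complex: 11 RefSeq transcripts share the row, and the antisense gene Nespas overlaps it, so the value cannot be assigned to 1 transcript. The sources used here do not state whether the authors counted reads by strand.

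Adcy3, an adenylyl cyclase, had 153, 150.1 and 272 CPM in Beclin1_KO, against 395, 269 and 452 CPM in WT. The groups overlapped, because Beclin1_KO replicate 3 exceeded WT replicate 2. Adcy3 fell 1.94-fold, with a log2 fold change of -0.96, an SE of 0.30 and an adjusted p of 0.0373 (edgeR). The call was lost without Beclin1_KO replicate 1 (adjusted p = 0.104) or 2 (0.117) and without WT replicate 1 (0.0890) or 3 (0.109). It was lost as well without both libraries highest in muscle markers (0.0736) and in the limma fit of log2(FPKM + 1), where the log2 fold change was -0.64 (0.0942). Cenpo overlaps Adcy3 on the opposite strand, and their reads could be mixed if the strand was not used.

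Of the PKA catalytic subunits, Prkaca fell and Prkacb did not pass. Prkaca, the gene of catalytic subunit alpha, had 124, 107 and 132 CPM in Beclin1_KO, against 454, 460.0 and 464 CPM in WT. Both groups were tight and far apart, at 121 ± 12.9 CPM in Beclin1_KO and 459 ± 4.95 CPM in WT (SD, n = 3 each). Prkaca fell 3.81-fold, with a log2 fold change of -1.93, an SE of 0.13 and an adjusted p of 0.000112 (edgeR). Of all genes tested, 2.43% had a log2 fold change as low or lower.

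Prkacb, which encodes catalytic subunit beta, had 90.7, 77.4 and 83.8 CPM in Beclin1_KO, against 65.2, 62.9 and 76.0 CPM in WT. The knockout libraries all lay above the WT libraries, with a narrow gap. The log2 fold change was 0.30 with an SE of 0.12, and the gene did not pass (adjusted p = 0.0699, edgeR). It passed in the limma fit of log2(FPKM + 1), with a log2 fold change of 0.62 (adjusted p = 0.00198), where 39.3% of all 12463 genes tested rose and 13.7% fell. On that scale the log2 fold change of all genes shifted upward by a median of 0.32 relative to the count scale, as much as both estimates for Prkacb differ. Upper-quartile scaling gave 0.31 and an adjusted p of 0.0494.

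Ratios within a library do not depend on scaling between libraries. The FPKM of Prkaca was 2.57, 2.60 and 2.96 times that of Prkacb in Beclin1_KO, against 13.2, 13.8 and 11.5 times in WT. Prkaca thus accounted for 72.0% to 74.8% of the catalytic signal in Beclin1_KO and 92.0% to 93.2% in WT. The difference in log2 ratio was -2.24 (exact two-sided permutation p = 0.1, adjusted over 7 ratios to 0.233). With 3 libraries against 3, 0.1 is the smallest p this test can give.

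**Figure D2:**
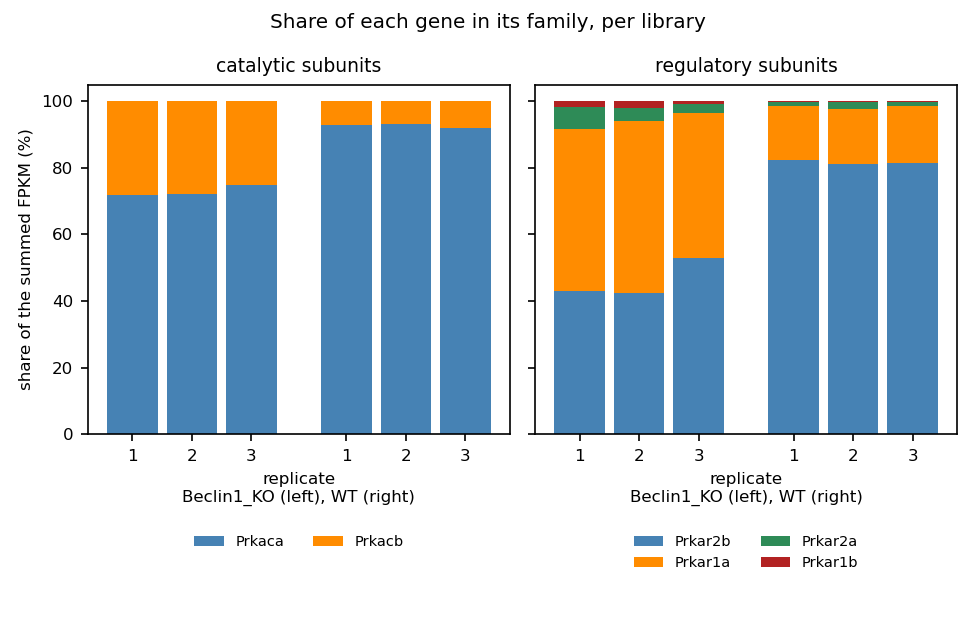
Share of each gene in the summed FPKM of its family, in percent, for every library, Beclin1_KO on the left and WT on the right. Prkaca takes 72.0% to 74.8% of the catalytic signal in Beclin1_KO and 92.0% to 93.2% in WT and Prkar2b takes 42.5% to 52.9% of the regulatory signal in Beclin1_KO and 81.2% to 82.5% in WT.

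Of the regulatory subunits among the 9 genes, Prkar2b fell and Prkar1a did not pass. Prkar2b, the gene of the type II beta subunit that prevails in adipose tissue, had 266, 269 and 460.4 CPM in Beclin1_KO, against 1456, 1407 and 1602 CPM in WT. The groups lay far apart, with Beclin1_KO replicate 3 nearest to WT. Prkar2b fell 4.49-fold, the largest fall of the 9 genes, with a log2 fold change of -2.17, an SE of 0.26 and an adjusted p of 0.000833 (edgeR). Of all genes tested, 1.72% had a log2 fold change as low or lower.

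Prkar1a, which encodes the type I alpha subunit found in most tissues, had 300.2, 329 and 380.5 CPM in Beclin1_KO, against 285, 288 and 341 CPM in WT. These ranges overlapped. The log2 fold change of 0.14 had a 95% interval of -0.20 to 0.49 and did not pass (adjusted p = 0.457, edgeR). It was 0.49 in the limma fit of log2(FPKM + 1) and passed there (adjusted p = 0.0165), on the scale whose median shift is given above.

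The FPKM of Prkar2b was 0.891, 0.823 and 1.21 times that of Prkar1a in Beclin1_KO, against 5.13, 4.90 and 4.71 times in WT. The log2 ratio differed by -2.35 (exact permutation p = 0.1, adjusted to 0.233). Prkar1a made up 48.5%, 51.6% and 43.6% of the regulatory signal in Beclin1_KO, against 16.1%, 16.6% and 17.3% in WT. The summed levels of the genotypes did not overlap for either kind of subunit. The catalytic genes summed to 79.8 ± 4.49 FPKM in Beclin1_KO and 188 ± 8.18 FPKM in WT, and the 4 regulatory genes to 233 ± 44.7 FPKM in Beclin1_KO and 471 ± 15.9 FPKM in WT. The regulatory sum divided by the catalytic sum was 2.44, 2.93 and 3.37 in Beclin1_KO and 2.46, 2.40 and 2.66 in WT, and the groups overlapped. The ratio of Prkaca to Prkar2b overlapped too, with a log2 difference of 0.28 (exact permutation p = 0.4).

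Pde3b, the phosphodiesterase, had 79.2, 100.4 and 117 CPM in Beclin1_KO, against 273, 228 and 302 CPM in WT. No knockout library reached the WT range. Pde3b fell 2.71-fold, with a log2 fold change of -1.44, an SE of 0.18 and an adjusted p of 0.00114 (edgeR). Its share of the summed FPKM of 16 phosphodiesterases of the cAMP group was 11.3% to 15.2% in Beclin1_KO and 21.2% to 24.0% in WT, without overlap. The sum over these 16 genes did overlap, at 142 to 208 FPKM in Beclin1_KO and 179 to 210.4 FPKM in WT.

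**Figure D3:**
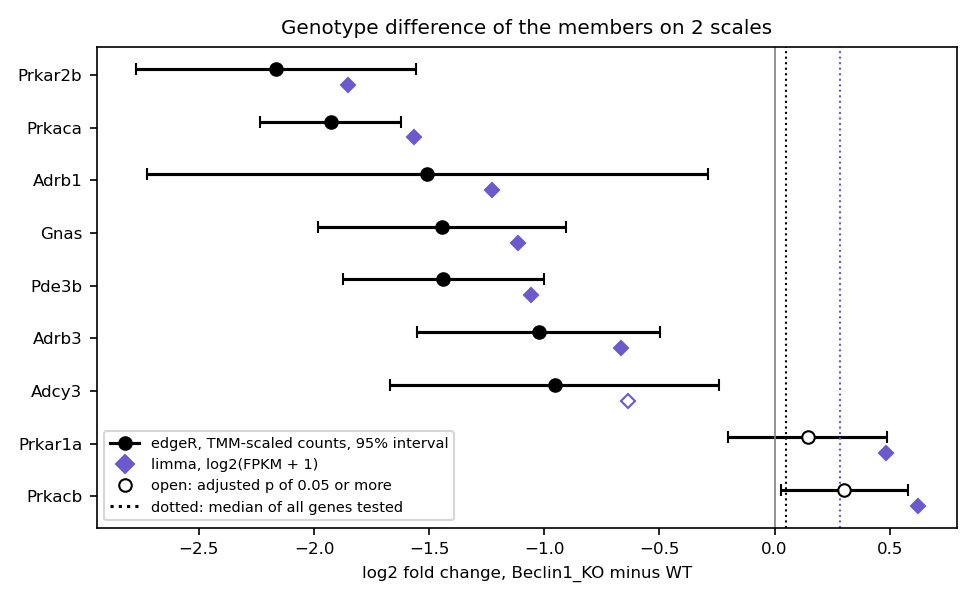
Log2 fold change of the 9 genes, Beclin1_KO minus WT: circles are the edgeR estimate on TMM-scaled counts with its 95% interval, diamonds the limma estimate on log2(FPKM + 1), open symbols did not pass an adjusted p of 0.05, and dotted lines are the medians of all genes tested on each scale. The 7 genes that fell lie between -2.17 and -0.96 on the count scale, while Prkar1a and Prkacb lie at 0.14 and 0.30.

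The FPKM scale also gives the order of the levels. In Beclin1_KO it ran from Gnas (1038 FPKM) through Prkar1a (111), Prkar2b (109), Adrb3 (58.8), Prkaca (58.3), Adcy3 (46.8), Prkacb (21.5) and Pde3b (20.7) to Adrb1 (6.72). Prkar1a and Prkar2b, the trio of Adrb3, Prkaca and Adcy3, and the pair of Prkacb and Pde3b overlapped between neighbours over the 3 libraries. In WT it ran from Gnas (2222 FPKM) through Prkar2b (384), Prkaca (174), Adrb3 (93.3), Prkar1a (78.3), Adcy3 (71.8), Pde3b (43.9) and Adrb1 (15.1) to Prkacb (13.6). There Adrb3 overlapped with Prkar1a, and Prkar1a with Adcy3. Prkar2b thus stood above Prkar1a in every WT library, whereas their knockout ranges overlapped.

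Among the Beclin1_KO libraries, replicate 3 had the highest CPM for all 7 genes that fell, and for 62.8% of all genes that fell in the tissue. That library also had the highest summed brown adipocyte markers of its group, 5619 CPM, against 2699 and 3092 CPM in replicates 1 and 2. Its macrophage markers were the lowest of the group, at 5662 CPM against 8759 and 6873 CPM. The relation of these sums to the 9 genes was not tested. The ratio of Adrb3 to the adipocyte hormone gene Adipoq did not separate the genotypes. In FPKM it was 0.120, 0.132 and 0.113 in Beclin1_KO and 0.0934, 0.0820 and 0.122 in WT, with a log2 difference of 0.31 and overlapping groups (exact permutation p = 0.3).

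Further marker lists were counted as well, and several of them moved with genotype. Adipocyte markers fell in 11 of 12 genes and summed to 8726 to 12194 CPM in Beclin1_KO, against 28827 to 30198 CPM in WT. All 14 macrophage markers rose and summed to 5662 to 8759 CPM in Beclin1_KO and 311 to 354 CPM in WT. Fibroblast markers rose in 9 of 10 genes, with sums of 9514 to 15797 CPM in Beclin1_KO and 2021 to 2915 CPM in WT. Lymphocyte markers rose in 8 of 12 genes, with sums of 86.6 to 103 CPM in Beclin1_KO and 7.39 to 12.8 CPM in WT. The other calls among them, 2 falls, were not kept without Beclin1_KO replicate 1 or 2 or WT replicate 2 or 3. With the replicate block they were not kept either, and 0 fell in each case. On the FPKM scale only 9 of the 12 were tested, and all 9 rose. Endothelial markers fell in 6 and rose in 1 of 8 genes, mural cell markers fell in 2 and rose in 1 of 7, and none of the 10 muscle markers passed. None of the 5 nerve markers tested passed in edgeR, but 3 rose and 1 fell of 6 without Beclin1_KO replicate 3, and 2 of 4 rose on either FPKM scale. How far these cell types contribute to the values of the 9 genes was not tested.

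The other genes of the pathway moved in both directions. Of 132 tested, 22 rose, 46 fell and 64 did not pass, with a median log2 fold change of -0.18. In the limma fit of log2(FPKM + 1), 35 rose and 30 fell of the 115 tested there, and the median was 0.12. Over all 12463 genes tested in that fit, 39.3% rose and 13.7% fell, with a median of 0.29. On that scale the anchoring proteins had 3 rises and 4 falls, the other G protein genes 6 and 3, the genes that shut receptors off 4 and 1, the CREB group 5 and 0, and the genes induced by cAMP 3 and 4. Counts below are from edgeR on the count scale. Without both libraries highest in muscle markers, calls given below were lost for Adra1d, Gnb4, Gng10, Prkar1b, Pde7a, Akap13, Gskip, Arrb1, Grk4, Grk5, Pnpla2, Elovl3, Sik2 and Rapgef4 (adjusted p 0.0534 to 0.253, edgeR).

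**Figure D4:**
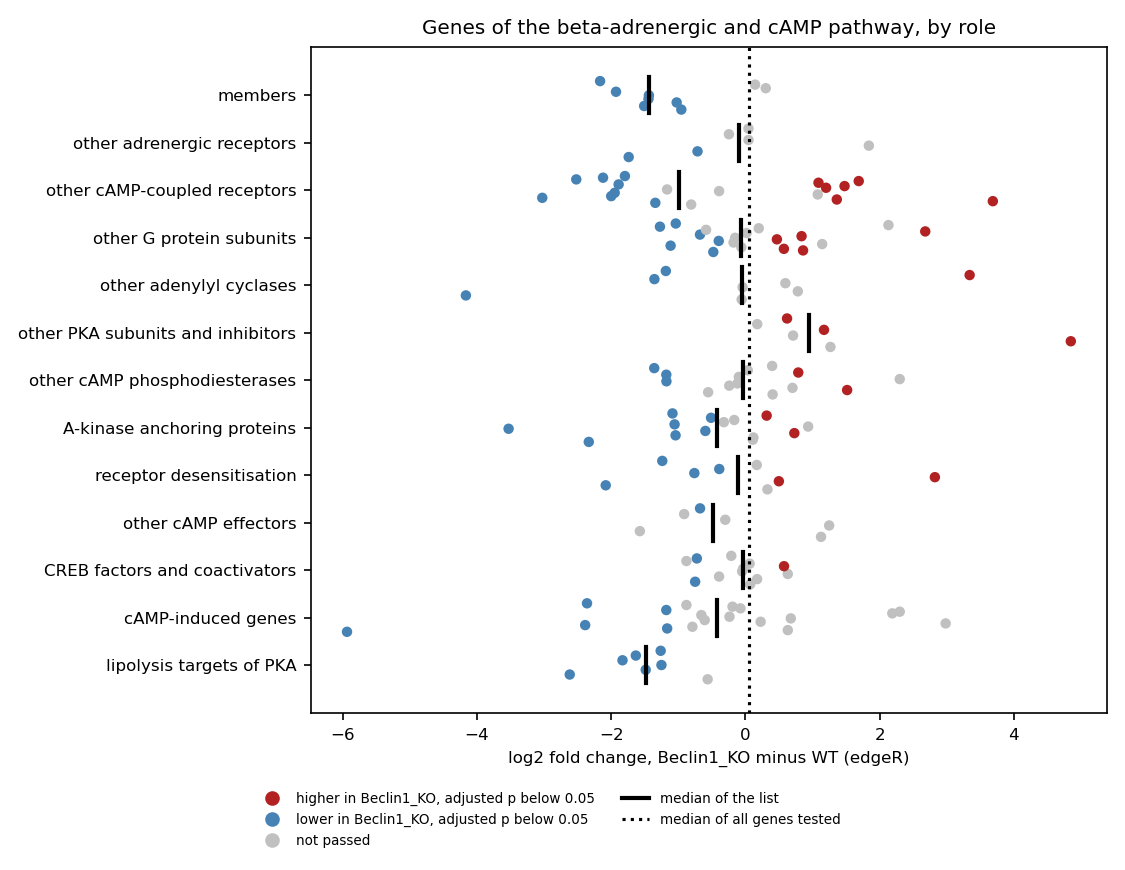
Log2 fold change, Beclin1_KO minus WT (edgeR, TMM-scaled counts), of each tested gene in the lists of the pathway, by role; red genes were higher and blue genes lower in Beclin1_KO at an adjusted p below 0.05, grey genes did not pass, and black bars are list medians. The medians of the 9 genes (-1.44) and of the lipolysis targets (-1.49) lie lowest, and that of the other PKA subunits and inhibitors (0.94) lies highest.

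Upstream of the cyclase, 2 of the 6 other adrenergic receptors tested fell and none rose. Adra1a, an alpha-1 receptor, had 23.6 ± 10.5 CPM in Beclin1_KO and 78.9 ± 11.8 CPM in WT (log2 fold change -1.74, adjusted p = 0.00493, edgeR). Adra1d fell less (-0.71, adjusted p = 0.0446), and its call was kept only without WT replicate 1 among the libraries left out in turn (0.0594 to 0.135 without each other library). Adra2a, an inhibitory alpha-2 receptor, averaged 0.738 CPM in Beclin1_KO and 0.206 CPM in WT and did not pass (log2 fold change 1.84, adjusted p = 0.0597), but did without WT replicate 1 (2.62, 0.0275). Adra2b and Adra2c stayed below 1 CPM in every library.

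Among 18 other receptors that couple to cAMP, 6 rose and 8 fell. Ptgir, the prostacyclin receptor, had 15.7 CPM in Beclin1_KO and 4.88 CPM in WT (log2 fold change 1.69, adjusted p = 0.000295). Ffar4, a fatty acid receptor, had 11.3 CPM in Beclin1_KO and 91.8 CPM in WT (-3.03, adjusted p = 0.000780, edgeR). The secretin receptor Sctr (-2.52) and the adenosine receptor Adora2a (-1.34) fell as well.

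Of the 19 other G protein genes, 5 rose and 6 fell, and 3 rose and 4 fell of 21 without either WT replicate 1 or 3. The inhibitory subunit Gnai2 rose, with 377 CPM in Beclin1_KO and 208 CPM in WT (log2 fold change 0.86, adjusted p = 0.00127, edgeR). Gng2, a gamma subunit, had 49.9 CPM in Beclin1_KO and 7.79 CPM in WT (2.68, adjusted p = 0.000111). Ric8b, a chaperone of stimulatory G alpha subunits, fell to 28.2 CPM in Beclin1_KO, against 57.8 CPM in WT (-1.04, adjusted p = 0.000402, edgeR). The gamma subunit Gng11 fell as well (-0.68), but missed the threshold on log2(FPKM + 1) (-0.32, adjusted p = 0.0946, limma). The other rises were those of Gnai3 (0.57), Gnb4 (0.47) and Gng10 (0.84). Gnb4 was lost without any library but Beclin1_KO replicate 3 (adjusted p 0.0725 to 0.0960), and Gng10 without each WT library (0.0591 to 0.0733).

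Of the 8 other cyclases tested, 1 rose and 3 fell, and 2 rose without Beclin1_KO replicate 3. Adcy7 had 131, 107 and 75.4 CPM in Beclin1_KO, against 9.40, 11.4 and 10.2 CPM in WT (log2 fold change 3.34, adjusted p = 0.000111, edgeR). On the FPKM scale it made up 9.31% to 19.6% of the 10 cyclases in Beclin1_KO and 0.692% to 1.15% in WT. The level of Adcy7 was highest in the knockout library with the highest summed macrophage markers and lowest in the one with the lowest, a relation that was not tested. Adcy6 fell (-1.36, 192 CPM in Beclin1_KO and 492 CPM in WT, adjusted p = 0.000846), as did Adcy9 (-1.19) and the soluble cyclase Adcy10 (-4.16). The value for Adcy10 was -3.48 without WT replicate 3 and -4.78 without Beclin1_KO replicate 3. The share of Adcy3 among the cyclases overlapped, at 29.5% to 44.9% in Beclin1_KO and 37.5% to 46.9% in WT.

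None of the 6 other PKA subunit and inhibitor genes fell, and 3 rose. Pkib, a PKA inhibitor peptide, had 8.66, 7.66 and 5.24 CPM in Beclin1_KO, against 0.242, 0.402 and 0.0950 CPM in WT (log2 fold change 4.85, adjusted p = 0.000571, edgeR). Prkx, a kinase related to the catalytic subunits, rose by 0.62 (adjusted p = 0.00366). The regulatory subunit Prkar1b rose by 1.17 (0.0156), a call lost without Beclin1_KO replicate 2 (0.0553) or WT replicates 2 (0.0540) and 3 (0.0605). Prkar2a had 35.6 ± 11.7 CPM in Beclin1_KO and 31.5 ± 9.26 CPM in WT and did not pass (0.18, adjusted p = 0.648). The inhibitor Pkig did not pass (0.71, adjusted p = 0.0571), but did without Beclin1_KO replicate 2 (0.0355) or WT replicate 3 (0.0376). Pkia, another inhibitor, was highest, within each group, in the library highest in muscle markers, with 105, 32.6 and 13.6 CPM in Beclin1_KO and 4.76, 51.6 and 6.51 CPM in WT. It did not pass (log2 fold change 1.27, adjusted p = 0.451, edgeR), but did without those libraries (2.03, 0.0297), and ran from 0.14 without Beclin1_KO replicate 1 to 3.15 without WT replicate 2.

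Of the 14 other phosphodiesterases tested, 2 rose and 3 fell. Pde4a (-1.18), Pde4d (-1.18) and Pde8a (-1.36) were the ones that fell beside Pde3b, with 67.6, 104 and 34.4 CPM in Beclin1_KO and 153, 236 and 88.2 CPM in WT. Pde4d missed the threshold without both libraries highest in muscle markers (adjusted p = 0.102, edgeR). Pde1b, a calmodulin-dependent phosphodiesterase, rose, with 27.0 CPM in Beclin1_KO and 9.46 CPM in WT (1.52, adjusted p = 0.000488, edgeR). Pde7a was the other gene that rose (0.79, adjusted p = 0.0289), a call lost without any library but Beclin1_KO replicate 3 (0.0794 to 0.0880).

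Among the 14 genes tested of A-kinase anchoring proteins, which hold PKA in place, 7 fell and 2 rose. Akap1, which tethers PKA to the outer mitochondrial membrane, had 91.3, 100.3 and 139 CPM in Beclin1_KO, against 662, 555 and 450.3 CPM in WT (log2 fold change -2.33, adjusted p = 0.000394, edgeR). Akap7 (-1.06) and Akap12 (-1.04) fell less. Akap5 fell by 3.53 on the log2 scale, with 0.390 CPM in Beclin1_KO and 4.51 CPM in WT, and by 2.86 without WT replicate 2. The rises were those of Akap13 (0.73), lost without WT replicates 2 (adjusted p = 0.0519) and 3 (0.0579), and Gskip (0.32), lost without any library but Beclin1_KO replicate 3 (0.0823 to 0.122).

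Of 8 genes that shut receptors off, 2 rose and 4 fell. Arrb2, a beta-arrestin, had 99.2 CPM in Beclin1_KO and 14.0 CPM in WT (log2 fold change 2.82, adjusted p = 7.08e-05, edgeR). The receptor kinase Adrbk2, now called Grk3, had 43.4 CPM in Beclin1_KO and 184 CPM in WT (-2.08, adjusted p = 0.000593). Arrb1 (0.50), the kinases Grk4 (-0.76) and Grk5 (-0.39), and Rgs2 (-1.24) lay nearer the threshold. On log2(FPKM + 1), Grk4 (-0.21, adjusted p = 0.288, limma), Grk5 (-0.042, 0.829) and Rgs2 (-0.76, 0.0673) did not pass. Rgs2 was lost without each Beclin1_KO library (adjusted p 0.0603 to 0.0660), Arrb1 without any library but WT replicate 2 (0.0554 to 0.116), Grk4 without any but WT replicate 2 (0.0723 to 0.122) and Grk5 without any but Beclin1_KO replicate 3 (0.0647 to 0.123).

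Downstream of cAMP, 6 of the 7 lipolysis genes fell and the seventh did not pass. They were Lipe, hormone-sensitive lipase (-1.49), the lipid droplet proteins Plin1 (-1.83) and Plin5 (-1.63), the lipases Pnpla2 (-1.26) and Mgll (-1.25), and G0s2, an inhibitor of Pnpla2 (-2.62). Abhd5, the activator of Pnpla2, had a log2 fold change of -0.56 (adjusted p = 0.0875, edgeR), and passed without Beclin1_KO replicate 3 (-0.77, 0.0302). Pnpla2 missed the threshold without Beclin1_KO replicate 2 (0.0551). Lipe and Plin1 are also on the adipocyte marker list above.

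Of 18 genes that cAMP is known to induce, none rose, 5 fell and 13 did not pass. Across all genes tested, 24.8% rose and 21.8% fell. The counts of the 18 genes moved with the analysis: 1 rose and 9 fell without Beclin1_KO replicate 3. In DESeq2, 3 rose and 7 fell, and 4 rose and 5 fell with muscle markers as a covariate. Ucp1 and Elovl3 are also on the brown adipocyte marker list, and Pde4d is counted with the phosphodiesterases above. Ucp1 had 1325, 1622 and 2750 CPM in Beclin1_KO, against 9526, 8075 and 11649 CPM in WT (log2 fold change -2.36, adjusted p = 0.00171, edgeR). Bmp8b, a secreted factor of brown fat, was nearly absent from Beclin1_KO, with 0.371 CPM, against 22.8 CPM in WT (-5.94, and -6.60 without Beclin1_KO replicate 2). The other falls were Elovl3 (-2.39), a fatty acid elongase, lost without Beclin1_KO replicate 1 (adjusted p = 0.0697), the thyroid hormone deiodinase Dio2 (-1.17), and Pde4d, with the loss given above. Dio2 was lost without any library but Beclin1_KO replicate 3 and WT replicate 2 (0.0767 to 0.126). Of 12 CREB factors and coactivators, Crtc3 rose (0.57), Atf2 (-0.75) and the kinase Sik2 (-0.72) fell, and 9 did not pass. Crem, among these 9 (0.63, adjusted p = 0.0684, edgeR), passed as higher in 6 of 19 alternatives. On log2(FPKM + 1), Atf2 (-0.36, adjusted p = 0.0886, limma) and Sik2 (-0.39, 0.135) did not pass. Crtc3 was lost without both libraries highest in muscle markers (adjusted p = 0.0513, edgeR). Sik2 was lost without any library but Beclin1_KO replicate 3 (adjusted p 0.0561 to 0.110). Among 6 further cAMP effectors only Rapgef4 fell (-0.68, adjusted p = 0.0469, edgeR), and that call was kept only without Beclin1_KO replicate 3 among the libraries left out in turn (0.0872 to 0.137 without each other library). Rapgef3 (-0.91, adjusted p = 0.0650), Rapgef2 (-0.30, 0.111), Popdc2 (-1.57, 0.123), Popdc3 (1.25, 0.493) and Bves (1.13, 0.589) did not pass in edgeR. With 1 library left out, Popdc3 ran from 0.068 without Beclin1_KO replicate 1 to 3.36 without WT replicate 2, and Bves likewise from 0.41 to 3.65. With muscle markers as a covariate they were at 0.13 and 0.35. Rapgef3 passed without Beclin1_KO replicate 3 (-1.23, 0.0286), Rapgef2 without WT replicate 2 (-0.42, 0.0469) and Popdc2 without Beclin1_KO replicate 1 (-2.66, 0.00475). Popdc2 also passed without both libraries highest in muscle markers (-2.51, 0.0134).

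The genes closest to each of the 9 in pattern were found by the root mean square difference of log2 CPM, each gene centred on its mean over the 6 libraries, among 11117 genes of at least 5 CPM on average. A smaller value means a closer match, and it is a description across libraries that share genotype, depth and scaling. The nearest to Adrb1 were Ackr3, Tbx5 and Gsta4 (0.167 to 0.190), and to Adrb3 they were Lncbate1, Arxes1 and Gnao1 (0.101 to 0.109). Gnas lay nearest to Decr1, Ndufv3 and Sirt3 (0.0646 to 0.0737), and Adcy3 to Prelp and Slc4a4 (0.115 and 0.120). Prkaca was closest to Uqcr10, Inafm2 and Pcdh12 (0.0792 to 0.0821), and Prkacb to Slc35a5, Herc4 and Coro7 (0.0405 to 0.0451). For Prkar1a the nearest were Twf1, Arl15 and Gdap2 (0.0387 to 0.0561), for Prkar2b they were Acaa2, Pccb and Uck1 (0.0754 to 0.103), and for Pde3b they were Sod1, Adipor2 and Plxna2 (0.0886 to 0.0969).

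The authors' deposited table gives fold changes of the same sign for all 9 genes, with its own adjusted p below 0.05 for the same 7. In the authors' deposited table the adjusted p of Adrb1 was 0.00203, and that of Adcy3 was 0.00478. For Prkacb the authors' deposited table has a fold of 1.23 with an adjusted p of 0.0829, and for Prkar1a a fold of 1.10 with 0.513.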

How the data were processed

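RNA of 6 samples was measured, 3 Beclin1_KO and 3 WT, grouped by their titles. Per the submitters' processing notes, HISAT2 2.1.0 and StringTie 1.3.4d were used, with Trimmomatic, DESeq2, bcl2fastq 2.20.0 and build mm10, and no roles are stated. The sources used here do not give the annotation or the use of strand. Per the file headers, the authors deposited read counts per gene, which are unnormalized whole numbers, and FPKM values. The authors' deposited table also holds a signed fold change, used here as a score, and an adjusted p-value. A further 6 columns of per-sample values were not used.

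Counts were tested with edgeR 4.0.16 (R 4.3.3): filterByExpr kept 15347 genes, libraries were scaled by TMM, and a robust quasi-likelihood fit had genotype as its only term. P-values were Benjamini-Hochberg adjusted over all genes tested, with a threshold of 0.05. CPM values are TMM-scaled, ± is the SD over n = 3, and intervals come from the fit at a level of 95%. Ratios used FPKM within a library and an exact permutation test over samples.

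As alternatives, scaling was by RLE, by the upper quartile or by TMM with the 20 most abundant genes left out. DESeq2 1.42.0 and limma 3.58.1 (voom, and FPKM in log2 with a pseudocount of 1 or 0.1 where 3 libraries reached 1 FPKM) replaced edgeR. Others were different count filters, no robust dispersion, a replicate block, muscle markers as a covariate, and leaving out libraries. Replicate numbers were not taken as pairs.

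The 9 genes and all lists were chosen with earlier results of these data known. Named were these 9, Becn1, the 4 smallest p per list, all genes of lists with fewer than 8, and 3 nearest patterns per gene, of which a few are not reported here. Dio2, Pde7a, Akap13, Gskip, Gnai3, Gnb4, Gng10, Grk4 and Grk5 were named after their values were seen, to complete small counts. Listed genes that were not found were Glp1r, Akap4 and Dbh, while Grk2 and Grk3 stand under the older symbols Adrbk1 and Adrbk2. Adra1b, Gcgr, Gnb3, Gng4, Adcy8, Pde11a, Akap3, Akap14, Sphkap, Th and Slc6a2 did not pass the count filter. Promoter windows came from RefSeq, assembly GRCm38.p6.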

Additional observations from a re-analysis of the deposited data

How the results depend on the processing

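The falls of Adrb3, Gnas, Prkaca, Prkar2b and Pde3b passed in all 19 alternatives. Adrb1 missed the threshold under RLE scaling (-1.51, adjusted p = 0.0508), without the low-count filter (-1.50, 0.0639) and without both libraries highest in muscle markers (-1.27). Adcy3 missed it on log2(FPKM + 1) (-0.64), on log2(FPKM + 0.1) (-0.65) and without those libraries (-1.0). Prkacb passed with upper-quartile scaling (0.31) and on both FPKM scales (0.62 and 0.66), and Prkar1a on both FPKM scales (0.49 each). Leaving out 1 library at a time gave -2.30 to -1.20 for Adrb1 and -1.29 to -0.80 for Adcy3. In these fits 5 to 7 of the 9 genes were lower, against 16.1% to 22% of all genes tested. Of the 9 genes, 1 was called higher with upper-quartile scaling, where 25% of all genes tested were higher, and 2 on each FPKM scale. Over all genes, 3340 were lower, against 1706 on log2(FPKM + 1), 1696 on log2(FPKM + 0.1) and 2054 without the libraries highest in muscle markers. Of the other pathway genes, 35 of 115 were higher and 30 lower on either FPKM scale. Over all 12463 genes tested there, 39.3% were higher and 13.7% lower on log2(FPKM + 1). On log2(FPKM + 0.1) these shares were 39.2% and 13.6%. The causes were not tested.

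Same-numbered libraries of both genotypes correlated at -0.42, 0.005 and 0.43 in their deviations from the group means, so the number was not read as pairing. With the replicate block 6403 genes passed, against 7150 without it, and no call among the 9 genes changed: Adrb1 was at -1.75, Adcy3 at -0.98, Prkacb at 0.30 and Prkar1a at 0.14.

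Genes that missed the threshold turned sign in some analyses. With muscle markers as a covariate the log2 fold change was -0.20 for Acta1, -0.52 for Adra2b, 0.28 for Adra2c and -0.070 for Prkar2a. Adra2b was at -0.11 and Adra2c at 0.011 with limma-voom, Adra2b at -0.059 with the replicate block and -0.14 without the libraries highest in muscle markers, and Rapgef2 at 0.047 and 0.055 on the FPKM scales. With 1 library left out, Acta1 ran from -0.78 to 3.99, Adra2b from -0.62 to 0.52, Adra2c from -0.68 to 0.11 and Prkar2a from -0.13 to 0.42. Depth limits Adra2a, Adra2b and Adra2c, which had about 1 CPM or less.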
